A study of Mus musculus with 96 samples.

Results

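The cytosolic ribosomal protein genes were examined in single EL4 cells, a mouse T-lymphoma line from the C57BL/6N strain, with and without knockdown of Ctcf. Of 24057 gene rows in the deposited TPM table, 84 carry a symbol of the form Rpl or Rps with a number, or Rplp0, Rplp1, Rplp2 or Rpsa. Of these, 80 had a TPM above 0 in 10 or more of the 96 cells and are the members described here, 32 of the small subunit and 48 of the large subunit. Rpl3l, Rpl10l, Rpl39l and Rps4l were listed at 0 in every cell and are not members, and the members nearest the limit were Rpl32l with 28 cells and Rpl21 and Rpl23a with 49 cells each. Rpl32l is annotated as a processed pseudogene in GENCODE M21. Symbols with -ps and the Rps6k kinases were left out. The study sequenced 24 cells from each of 4 cultures. All of the cultures carried a retrovirally delivered shRNA with GFP for 5 days, against luciferase in shLuc #1 and shLuc #2 (WT cells) and against Ctcf in shCTCF #1 and shCTCF #2 (CTCF-KD cells). The cultures numbered 1 formed experiment 1 and those numbered 2 formed experiment 2, and each was captured on its own Fluidigm C1 circuit, so that a culture and its circuit cannot be told apart. The methods of the study list 2 hairpins against Ctcf and do not say which culture carried which.

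Each ribosome is built of a small subunit, which reads the mRNA, and a large subunit, which joins the amino acids, and every subunit takes up its proteins in equal number, apart from the P stalk, where Rplp1 and Rplp2 stand as dimers on Rplp0. Most ribosomal protein mRNAs begin with a C followed by a run of C and T, the 5′ terminal oligopyrimidine (TOP) tract, through which the mTOR pathway and Larp1 control their translation and stability. Ribosomal protein genes have also left many processed pseudogenes in mammalian genomes, and reads that fit both a gene and such a copy are not unique.

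RefSeq start sites on GRCm38.p6 were listed for 60 of the 80 members. In 14 of the 60 (23.3%) at least 1 listed start was a C followed by C or T up to base 5, against 285 of 9132 tested genes (3.1%). The pseudogene row Rpl32l is among the 14. Only these 14 are named below as members with a C/T run. Starts on a T within a C/T run, as in Rpl34, Rpl7a and Rpl27a, and shorter runs from a C count as other starts. The start windows of the members to which the results below return are given first for 6 of the 14. Each shows 20 bases before and 10 bases from the start base, 5′ to 3′ on the coding strand, with the C/T run that holds the start base in capitals.
Rps18, chr17:33955656-33955685, minus strand: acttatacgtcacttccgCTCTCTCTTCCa
Rps21, chr2:180257359-180257388, plus strand: gcacttaccgaggacccgCCCTCCTgccca
Rps10, chr17:27635235-27635264, minus strand: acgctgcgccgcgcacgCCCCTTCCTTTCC
Rpl38, chr11:114668560-114668589, plus strand: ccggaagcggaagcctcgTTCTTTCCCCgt
Rplp2, chr7:141447631-141447660, plus strand: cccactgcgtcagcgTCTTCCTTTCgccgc
Rps6, chr4:86857358-86857387, minus strand: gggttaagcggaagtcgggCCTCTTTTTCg
Windows of members whose listed start is no C/T run follow for comparison, with the first listed start shown where a gene has several.
Rps27l, chr9:66946066-66946095, plus strand: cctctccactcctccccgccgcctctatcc
Rpl22, chr4:152324416-152324445, plus strand: atcagcgctgcttctggaatgttccagctc
Rplp0, chr5:115559447-115559476, plus strand: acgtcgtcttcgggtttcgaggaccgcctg
Rpl5, chr5:107900508-107900537, plus strand: ctctttctcacgtcgcttgcgtgctggtgg
The split rests on annotated starts, and the start that these cells used was not measured. Among the 250 bases before the start, on either strand, CCGGAAGT was found in 8 of 60 members (13.3%) and 7.2% of tested genes, AAGATGGC in 3 (5.0%) and 2.7%, and TATAAA in 5 (8.3%) and 7.8%. No overlap between these motifs was examined.

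After removal of the 1 cell under 3000 genes, 95 cells were kept. Whole reads recovered from the TPM steps totalled 3232422 to 6192121 per culture, lowest in shCTCF #2, and members held 91607 to 274272 of them. Mean Ctcf was 60.3 and 37.1 TPM in shLuc #1 and #2, 16 in shCTCF #1 and 44.9 in the culture labelled shCTCF #2, where it was above its control. The SD over cells was 76.8 and 45.5 TPM in shLuc #1 and #2 and 27.4 and 50 in shCTCF #1 and #2. Cells of all cultures overlapped, and the difference in experiment 2 was far smaller than these SDs. The Western blot and qPCR of the study are not used here. The 8 T cell markers were all detected, with a summed TPM of 5813 to 8311 per culture, while the summed TPM of 5 B cell, 5 myeloid and 5 fibroblast markers each stayed at or under 4.13. Cell S78 of the culture labelled shCTCF #2 stood apart, with 41591 reads and 49 of 80 members detected, against a median of 74 in its culture.

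Members differed in level by more than 3 orders of magnitude. Among the highest were Rpl8, at a mean of 5707 TPM over the 95 cells, Rpl32 (5628), the P stalk base Rplp0 (5592) and the small subunit protein Rps14 (5552). The 17 members above 1000 TPM held 80.4% of the members' TPM. At the other end stood Rpl24 (22.7), Rpl23a (22.6), Rpl17 (14.3), Rpl21 (8.40) and the pseudogene row Rpl32l (5.30). Proteins that the ribosome takes up in equal number were thus listed at very unequal mRNA levels. In all, 38 members were detected in every cell kept and 57 in at least 90 of the 95, while 7 were detected in fewer than 60 of the 96.

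**Figure D1:**
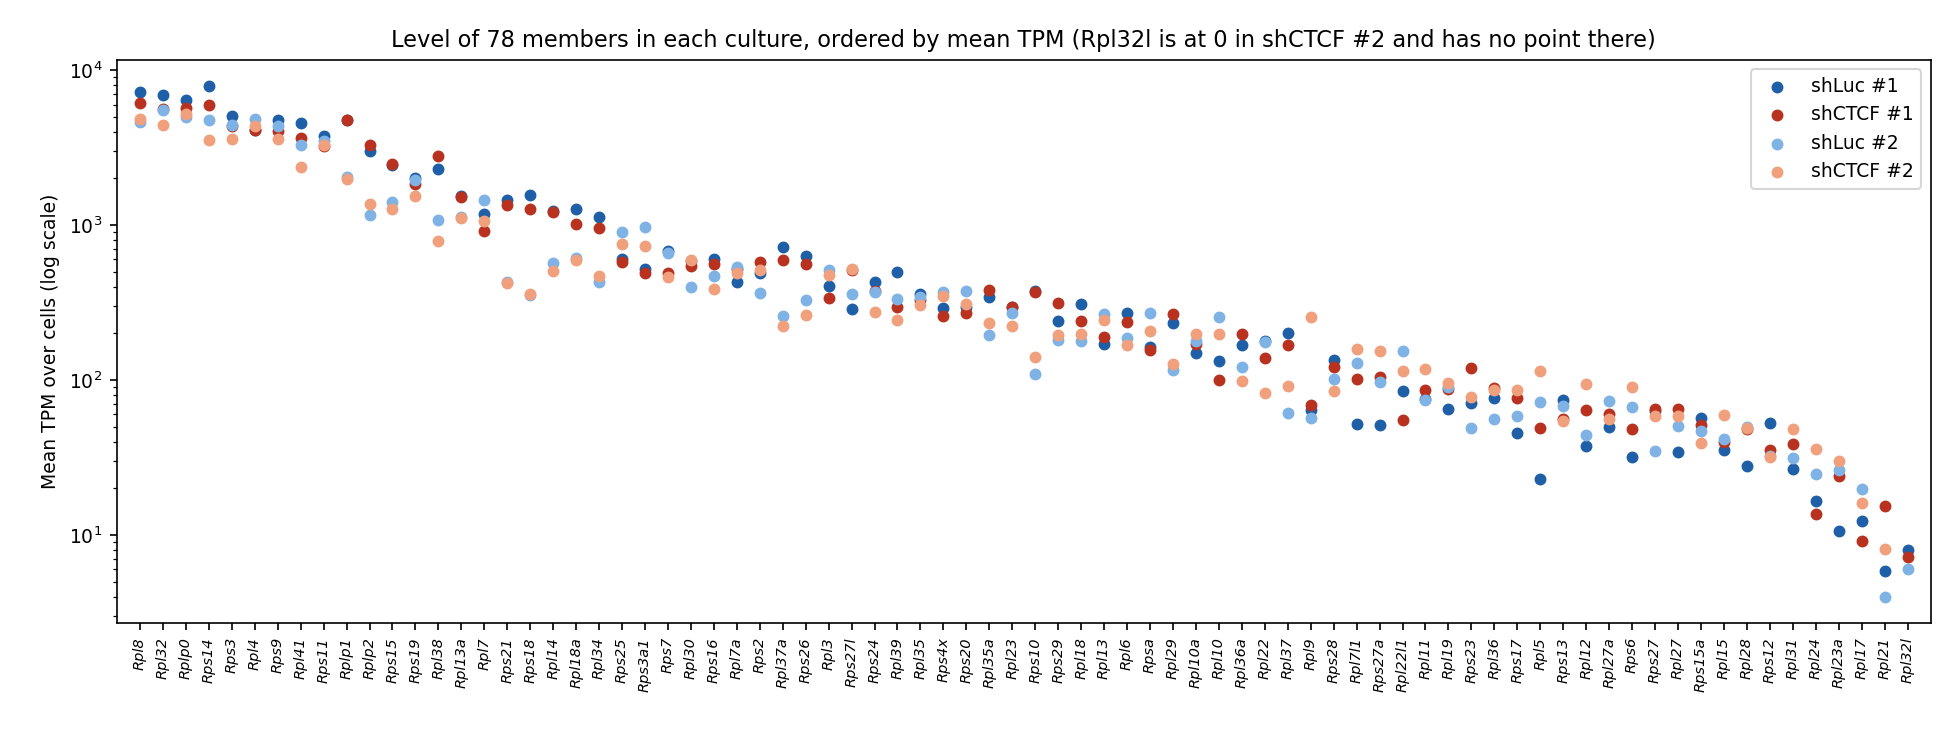
Mean TPM over cells (log axis) of 78 members in the 4 cultures, with members ordered from left to right by their mean over all cells kept. Levels fall from 5707 TPM for Rpl8 to 5.30 for Rpl32l, and for members such as Rps18, Rps21 and Rplp1 the 2 cultures of experiment 1 lie together above the 2 of experiment 2.

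The authors counted uniquely mapped reads, so reads that fit several places were left out. The share of a member's 50-base transcript windows that also occur in another gene or pseudogene was computed from GENCODE M21. In the 16 members sharing under 20% of their windows the median of the mean TPM was 587 and 7 of them were above 1000 TPM, while in the 24 members sharing 60% or more the median was 173 and 1 was above 1000 TPM. Across 79 members Spearman's rho of mean TPM with the shared percentage was -0.35, and with the number of pseudogenes that share a window it was -0.50. Members are not independent and share their libraries, so no p is given. Rpl21, with 81 such pseudogenes, Rpl17 with 50 and Rpl23a with 28 are among the 5 lowest, while Rpl8 has 1 and Rps14 has 2. Others with many such pseudogenes were not among the lowest, Rpl7a with 121 at a mean of 495 TPM, Rps2 with 71 at 488 and Rpl29 with 81 at 187. For Rpl21 these copies share 19.7% of the windows, and for Rpl23a 85.7%. Rplp1, with 60% of its windows shared, is the member of the last class above 1000 TPM. The part of shared sequence in the order of the levels was not tested. Levels of members that share most of their sequence are uncertain, and comparisons below are made mostly within a gene between cultures.

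The ribosomal protein share, the summed TPM of the members as a percent of a cell's total, addressed whether the ribosomal protein mRNAs as a whole changed upon CTCF knockdown. It was lower in CTCF-KD cells in both experiments, and lower in experiment 2 in both conditions. The mean over cells was 10.1% ± 1.73 (SD, n = 24 cells) in shLuc #1 and 8.99% ± 1.68 (SD, n = 24 cells) in shCTCF #1. It was 7.41% ± 1.18 (SD, n = 23 cells) in shLuc #2 and 6.60% ± 0.706 (SD, n = 24 cells) in the culture labelled shCTCF #2. The knockdown culture was thus lower than its control by 1.12 percentage points in experiment 1 and by 0.812 in experiment 2, a relative difference of -11.1% and -11.0%. Between experiments the share differed by -2.71 percentage points in WT cells and -2.40 in CTCF-KD cells. In shCTCF #1, 20 of 24 cells lay under the median of shLuc #1, and in the culture labelled shCTCF #2, 21 of 24 lay under the median of shLuc #2, but the ranges overlapped in both experiments. As a percent of recovered reads, which does not weight by length, the share was 4.40, 3.05, 4.06 and 2.82 in shLuc #1 and #2 and in shCTCF #1 and #2.

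**Figure D2:**
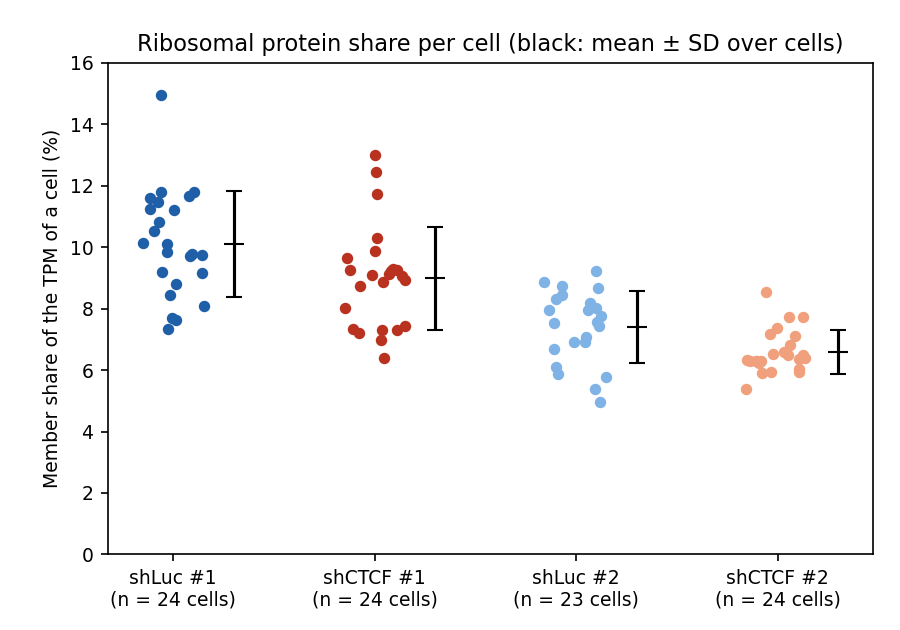
Ribosomal protein share of each cell's TPM (percent, axis from 0) in the 4 cultures, each point a cell and each bar the mean ± SD over the cells of the culture. Means fall from 10.1% to 8.99% in experiment 1 and from 7.41% to 6.60% in experiment 2, and 24 of 24 cells of shCTCF #2 lie under the median of shCTCF #1.

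An exact permutation test, two-sided, of 2 cultures with 2 goes no lower than a p of 0.333, and no p is given for a sum over members. The mean of the CTCF-KD cultures was 0.965 percentage points under that of the WT cultures, but without shLuc #1 the difference was 0.387 and without shCTCF #2 it was 0.234, both in the other direction. Each of these leaves more cultures of 1 experiment in a condition than in the other. Genes detected in a cell had a median of 4771 and 4635 in shLuc #1 and #2 and of 6172.5 and 5656 in shCTCF #1 and #2, so more genes shared the fixed total of TPM in CTCF-KD cells. Within cultures the correlation of the share with genes detected over cells was -0.41 and -0.03 in shLuc #1 and #2 and -0.28 and -0.36 in shCTCF #1 and #2, the last -0.19 without S78. The part of genes detected in the share was not tested.

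Gene by gene, no member passed the test for expression. Limma on log2(mean TPM + 1) of the 4 cultures, with Benjamini-Hochberg adjustment over 11980 genes, called 0 genes in either direction (0.0% higher and 0.0% lower), with 912 genes (7.61%) at an unadjusted p under 0.05. None of the 80 members was among these, and the lowest adjusted p of a member was 0.664. The median log2 difference, CTCF-KD minus WT, was -0.07 over members and 0.04 over all genes tested. Both CTCF-KD cultures lay under both WT cultures for 10 of 80 members (12.5%, against 16.9% of all genes) and above both for 12 (15%, against 19.9%). Taken per experiment, 38 members were lower in both (47.5%, against 26.7% of all genes) and 24 higher in both, which is close to the 30.1% of all genes. With the experiment as a replicate block, limma again called 0 genes, and 8 members were lower (10%, against 5.12% of all genes) and 3 higher (3.75%, against 7.66%) at an unadjusted p under 0.05.

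Log2 differences between conditions and mean TPM had a Spearman's rho of -0.39 over the 80 members. Of the 17 members above 1000 TPM, 11 were lower in CTCF-KD cells in both experiments and 1 was higher in both, with a median log2 difference of -0.16. Of the 23 members under 100 TPM, 5 were lower in both and 14 higher in both, with a median of 0.39. Over all genes tested, 26.7% were lower in both and 30.1% higher in both. Other genes of these levels were not compared, and the lowest members rest on few reads. Rps14, a small subunit platform protein whose loss in human cells underlies the anaemia of the 5q- syndrome, had means of 7950 and 4789 TPM in shLuc #1 and #2 and 5913 and 3524 in shCTCF #1 and #2. Its log2 differences were -0.43 and -0.44 in the 2 experiments. Rpl32 differed by -0.32 and -0.33, and Rpl8 and Rplp0 had opposite signs in the experiments. For Rps14 and Rpl32 the 2 experiments gave nearly the same difference, while the means of the conditions overlapped.

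**Figure D3:**
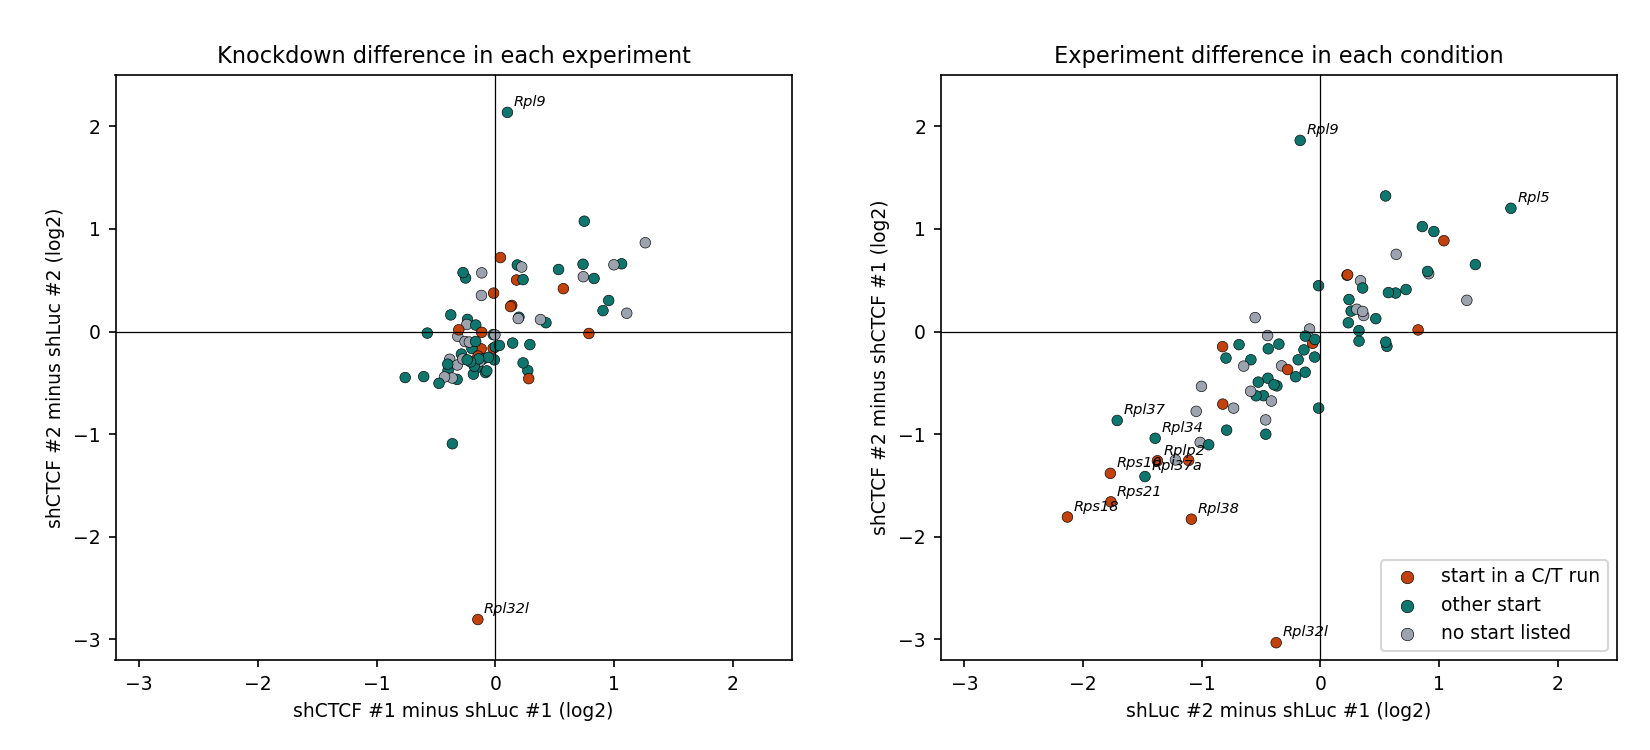
Log2 differences of the 80 members between cultures. The left panel sets the knockdown difference of experiment 2 against that of experiment 1, and the right panel the difference between experiments in CTCF-KD cells against that in WT cells, coloured by the RefSeq start. Colours mark a C start followed by a C/T run, another listed start (T starts within a C/T run included) or no listed start. On the left 38 members lie below 0 on both axes and 24 above. On the right Rps18, Rps21, Rps10 and Rpl38 lie below -1 on both axes, and Rpl9 and Rpl32l lie away from the other members in both panels.

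The P stalk recruits the elongation factors to the large subunit. Rplp0 had means of 6388, 5014, 5703 and 5240 TPM in shLuc #1 and #2 and shCTCF #1 and #2, the order used from here on. Rplp1 had 4747, 2036, 4739 and 1991 TPM, with a log2 difference of -0.02 ± 0.56 (SE, n = 2 cultures per condition). The SE of a difference between conditions is given here and below from the fit without the replicate block, so it includes the difference between experiments. With the block the SE of Rplp1 was 0.11. Rplp2 had 3000, 1158, 3282 and 1371 TPM, with a difference of 0.19. Within experiments 1 and 2 the difference between conditions was -0.003 and -0.03 for Rplp1 and 0.13 and 0.24 for Rplp2, and both were more than 2 times as high in experiment 1.

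Rpl5 and Rpl11 enter the large subunit with the 5S rRNA and, when not assembled, bind Mdm2 and stabilise p53. Rpl5 had a mean of 22.9 and 71.7 TPM in shLuc #1 and #2 and 49 and 114 in shCTCF #1 and #2. Its log2 difference was 0.86 ± 0.70 (SE), adjusted p = 0.81 by limma, and it was higher in the knockdown culture of each experiment. Rpl11 had means of 75.3, 74.5, 85.8 and 117 TPM and a difference of 0.42 ± 0.39 (SE), adjusted p = 0.837 by limma. For Rpl5, 85.4% of the transcript windows occur elsewhere, so its level is uncertain.

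Among small subunit members, Rps27l had the highest limma statistic of all members. It is the paralog of Rps27 and a known p53 target. Its TPM ran from 14.5 over a median of 238 to 727 in shLuc #1 and from 38.1 over 314 to 758 in shLuc #2. In shCTCF #1 it ran from 145 over 477 to 1241, and in shCTCF #2 from 101 over 458 to 1079. Both CTCF-KD medians lay above both WT medians, while the cells overlapped. The means were 289, 362, 515 and 518 TPM, a log2 difference of 0.68 ± 0.30 (SE), adjusted p = 0.664 by limma and 0.278 with the replicate block. Rps27 itself, which holds the same place in the ribosome, was far lower, at 62.7, 35, 64.7 and 58.3 TPM, and was detected in 12 to 16 cells of each culture. Rps27 shares 46.2% of its windows with other genes and Rps27l 16.2%, so the order of this pair is uncertain.

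Rps27a, which is made as a fusion with ubiquitin, had means of 51.5, 97.8, 104 and 154 TPM and a log2 difference of 0.83 ± 0.47 (SE), adjusted p = 0.751 by limma. Rps23, a protein of the decoding centre, had 71.4, 48.8, 120 and 77.4 TPM and a difference of 0.70. Both CTCF-KD cultures lay above both WT cultures for each. Rps7, an Mdm2-binding protein of the small subunit, had the lowest statistic among small subunit members. Its means were 678, 657, 488 and 463 TPM, with a log2 difference of -0.49 ± 0.28 (SE), adjusted p = 0.751, and -0.47 and -0.50 in the experiments. Rps19, the gene most often mutated in Diamond-Blackfan anaemia, had 2027, 1960, 1829 and 1540 TPM and a difference of -0.25. Rpsa, the laminin receptor precursor, had 163, 270, 155 and 207 TPM and a difference of -0.23. Rps13 had 73.9, 67.6, 55.8 and 54.1 TPM and a difference of -0.36. For Rps7, Rps19 and Rps13, but not for Rpsa, both CTCF-KD cultures lay under both WT cultures.

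In the large subunit, Rpl22 had the lowest limma statistic. This RNA-binding protein is required for the development of alpha-beta T cells and is known to repress its paralog Rpl22l1. Rpl22 TPM ran from 61.4 over a median of 150 to 590 in shLuc #1, from 30.4 over 130 to 628 in shLuc #2, from 69.5 over 133 to 292 in shCTCF #1 and from 0 over 80.7 to 139 in shCTCF #2. The means were 178, 176, 138 and 82 TPM, with a log2 difference of -0.73 ± 0.39 (SE), adjusted p = 0.735 by limma. Rpl22l1 had means of 84.8, 155, 55.5 and 114 TPM and a difference of -0.52, lower in both experiments as well. Rpl39, which lines the exit tunnel, had 501, 333, 296 and 244 TPM and a difference of -0.60. Rpl7 had 1177, 1456, 915 and 1064 TPM and a difference of -0.41. Its relative Rpl7l1 went the other way, with 51.7, 129, 101 and 160 TPM and a difference of 0.63. For Rpl22, Rpl39 and Rpl7 both CTCF-KD cultures lay under both WT cultures.

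Rpl12, at the base of the P stalk, had means of 37.5, 44, 63.8 and 93.8 TPM and a log2 difference of 0.91. Rpl9 had 64.4, 57.1, 69.3 and 254 TPM and the largest positive difference among members, 1.12. The Rpl9 value rests on S78, where 55 reads gave 4563 TPM against 187 in the next highest cell of its culture. Without that cell the mean of shCTCF #2 was 67.2 TPM and the log2 difference of experiment 2 was 0.23 in place of 2.14. Among the lowest members, Rpl21 had 5.86, 3.98, 15.5 and 8.08 TPM, Rpl17 had 12.3, 19.7, 9.19 and 16.2, Rpl23a had 10.6, 26.3, 24 and 29.9, and Rpl24 had 16.6, 24.7, 13.8 and 35.9. These rest on 19 to 46 reads per culture for Rpl17, Rpl23a and Rpl24. Rpl32l was listed at 0 in shCTCF #2 and had at most 14 reads in any other culture. Of the 17 members linked to Diamond-Blackfan anaemia, both CTCF-KD cultures lay under both WT cultures for 3 (against 16.9% of all genes) and above both for 4 (against 19.9%).

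The difference between experiments was larger than that between conditions for 57 of 80 members (71.3%), against 49.3% of all genes tested. The median absolute log2 difference of members was 0.49 between experiments and 0.25 between conditions, and over all genes 0.58 and 0.55. Both cultures of experiment 1 lay above both of experiment 2 for 35 members (43.8%, against 13.5% of all genes) and under both for 20 (25%, against 25.6%). The median log2 difference, experiment 2 minus experiment 1, was -0.24 over members and 0.20 over all genes. In limma, 0 genes passed for this contrast (0.0%), and 16 members were lower in experiment 2 (20%, against 2.64%) and 3 higher (3.75%, against 5.25%) at an unadjusted p under 0.05. This contrast, and Rps18, Rps21, Rpl38 and Rps10 as its examples, were chosen after the values were seen.

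Rps18, a protein of the small subunit head, showed the difference in nearly every cell. Its TPM ran from 1075 over a median of 1433 to 2938 in shLuc #1 and from 171 over 339 to 582 in shLuc #2, without overlap. In shCTCF #1 it ran from 569 over 1195 to 1935 and in shCTCF #2 from 124 over 331 to 1148. The means were 1563 and 1264 TPM in experiment 1 and 356 and 360 in experiment 2, a log2 difference of -1.97 ± 0.25 (SE), adjusted p = 0.566 by limma. Rps21 had means of 1454 and 1344 TPM in experiment 1 and 427 and 425 in experiment 2, Rpl38, known for its part in the translation of Hox mRNAs, 2302 and 2800 against 1083 and 788, and Rps10 373 and 369 against 109 and 141. The log2 differences between conditions in experiments 1 and 2 were smaller, at -0.31 and 0.02 for Rps18, -0.11 and -0.01 for Rps21, -0.01 and 0.37 for Rps10, and 0.28 and -0.46 for Rpl38.

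In all, 13 members (16.2%, against 9.48% of all genes) were more than 1 log2 unit lower in experiment 2. Of these, 7 had a listed C start followed by a C/T run, as in the first set of windows above, the pseudogene row Rpl32l among them. A further 4 had another start, among them Rpl34 with a T start within a C/T run. For Rpl29 and Rplp1 no start was listed. The median difference between experiments was -0.97 over the 14 members with a C/T run, with both cultures of experiment 1 higher for 10, and -0.12 over the 46 with another listed start, with 16. Rps6, the S6 kinase substrate whose window is shown above, went the other way, at 32 and 48.1 TPM in experiment 1 and 66.9 and 89.8 in experiment 2. Length moved with the difference too. Spearman's rho between the length implied by the TPM step and the log2 difference between experiments was 0.38 over the 80 members and 0.21 over 8863 genes with a mean above 5 TPM, and the C/T-run members had a median length of 80.4% of the member median. Among the shorter members, the median difference was -1.39 for 10 with a C/T run and -0.43 for 21 with another start, and among the longer members it was 0.03 for 4 and 0.21 for 25. Among 271 other tested genes with a C/T run, whose median length was 385% of the member median, it was 0.13. The parts of length and start in the difference were not tested, and the capture circuit and library of each culture cannot be told apart from the experiment. The knockdown difference had a median of 0.06 over the C/T-run members and -0.09 over the others.

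Cellular variation was measured as the SD and the CV (SD over mean) of log2(TPM + 1) over cells. The median SD of members was 0.63 and 0.80 in shLuc #1 and #2 and 0.55 and 0.92 in shCTCF #1 and #2, against 2.43, 2.61, 2.17 and 2.41 over the 7843 genes with a mean log2(TPM + 1) above 1. Without S78 the median in shCTCF #2 was 0.70. Members are also higher than most genes, with a median mean of 7.85 against 2.99. A running median of the SD over 201 genes ordered by level was therefore used, and 59 of 80 members (73.8%) lay under it in all 4 cultures, against 29% of all genes. At the top of the order the window was cut off and held mostly genes of lower level. For the highest members the running median was thus not matched in level. The least variable member was Rpl32, with an SD of 0.34, 0.31, 0.31 and 0.23 in the 4 cultures, and the most variable by the mean of the 4 was Rps27, with 3.12, 2.98, 3.26 and 3.26. Rps27 rests on 47 to 128 reads per culture, so that a value of 0 in a cell does not show that the mRNA was absent.

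**Figure D4:**
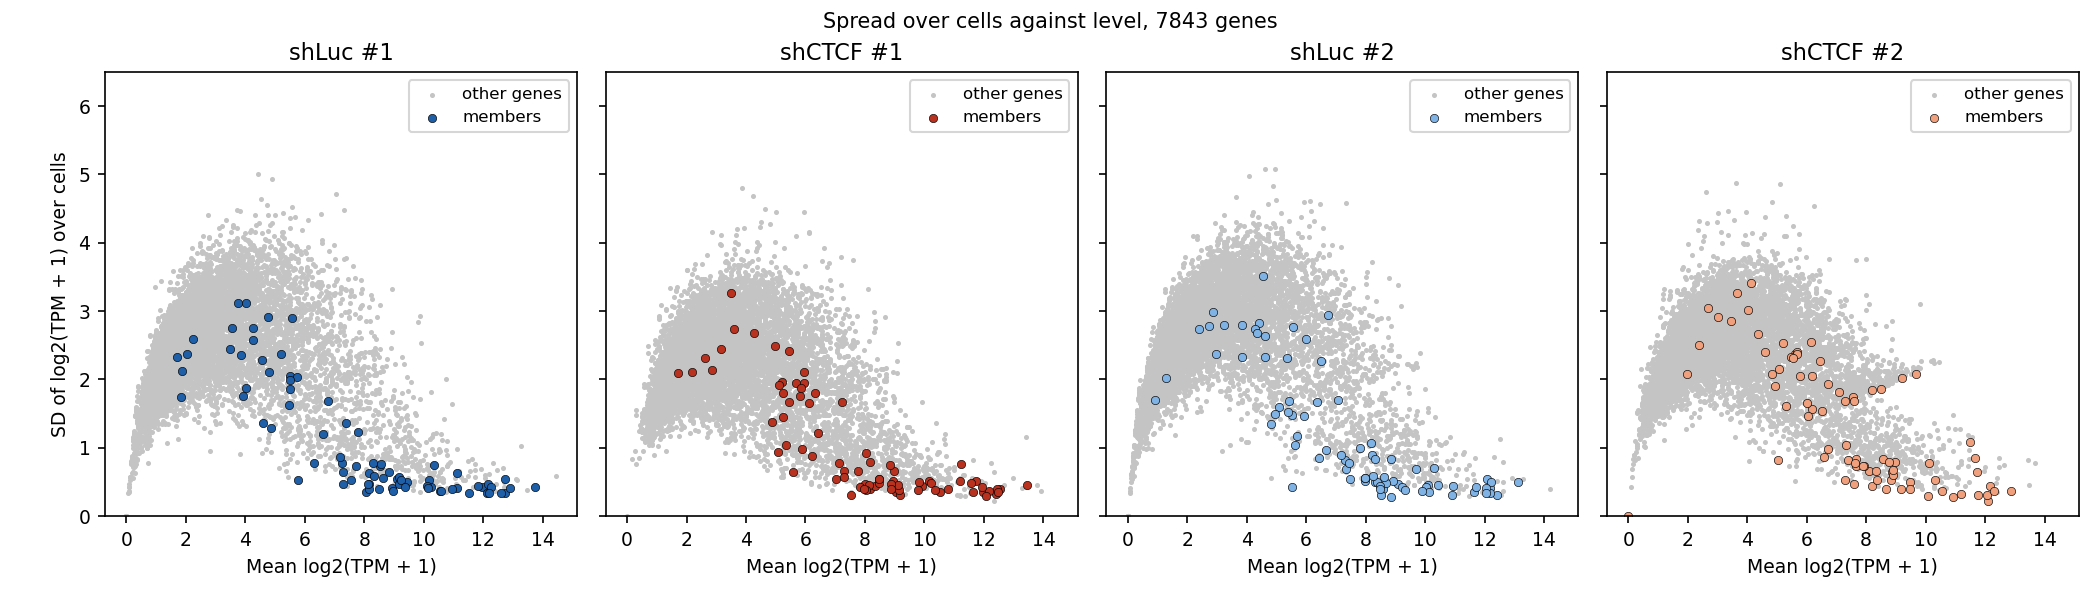
SD of log2(TPM + 1) over cells against its mean for 7843 genes in each culture, with the members coloured. Members with a mean above 8 form a band of low SD in shLuc #1, shCTCF #1 and shLuc #2, and in shCTCF #2 several lie above it, among them Rps7 (SD 1.85) and Rpl7 (2.08), which were at 0 in cell S78.

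Whether CTCF knockdown changed the variation of members was asked with the rule of the study, a difference in CV (CTCF-KD minus WT, cultures pooled) more than 1 SD from its mean over 7843 genes. The rule called 4 members increased (5.0%, against 7.68% of all genes) and 0 decreased (0.0%, against 11.3%). Its limits were a difference of 0.127 and of -0.685. A CV cannot fall by more than its WT value, and the median WT CV of members was 0.102. Most members could therefore not be called decreased, and the count of 0 says nothing about them. The upper limit of 0.127 is also larger than that median, but far smaller than the median WT CV of 1.07 over all genes. The shares of members and of all genes called increased are thus not on equal terms. The 4 members called increased were Rpl32l, Rps13, Rpl36a and Rps28. Rps13 had a CV of 0.291 in WT and 0.562 in CTCF-KD cells, Rpl36a 0.137 and 0.339, and Rps28 0.160 and 0.315. In shCTCF #2, the culture of lowest depth, Rps13 had 55 reads in 16 of 24 cells, Rpl36a 74 reads in 21 and Rps28 55 reads in 21. Without shCTCF #2 the rule called 0 members (against 7.87% of all genes increased and 11.6% decreased). With cells thinned to 80000 reads it called 3 increased (against 7.56%), Rpl17 and Rps28 among them, but neither Rps13 nor Rpl36a. Without S78 it called 5 increased (against 7.8%), these 4 included. The largest falls in CV were those of Rpl21 (1.27 to 0.880), Rpl23a (1.24 to 0.859) and Rpl12 (0.744 to 0.369).

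The median difference in CV was -0.004 over members and -0.22 over all genes, and CV was lower in CTCF-KD cells for 45 of 80 members (56.3%) and for 81.5% of all genes. The median CV in WT cells was 0.102 over members and 1.07 over all genes, so a fall of 0.22 is larger than the whole CV of most members. Limma on the CV of each culture, over 7823 genes and 79 members, called 0 members, with 324 genes lower (4.14%) and 5 higher (0.0639%), and 7 members (8.86%, against 27.8% of all genes) at an unadjusted p under 0.05. With the replicate block it called 1557 genes lower (19.9%) and 24 higher (0.307%), among them 5 members lower, Rpl12, Rps27a, Rpl5, Rpl10 and Rpl7l1, and 2 higher, Rpl36a and Rps13. Rps27a was also called lower without S78 (adjusted p = 0.047) and after thinning (adjusted p = 0.040), against 0.076 with all cells. Of the 5 members lower under the block, Rps27a, Rpl5, Rpl12 and Rpl7l1 had a higher mean TPM in the knockdown culture of each experiment, and Rpl10 a lower one.

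In shCTCF #2, 12 members were at 0 in S78 and in no other cell. For Rpl7 the lowest TPM in the other cells of that culture was 668, for Rpl38 345, for Rps7 235, for Rps16 122 and for Rpl39 118. The SD of Rps7 in shCTCF #2 was 1.85, against 0.42, 0.38 and 0.39 in the other cultures, and its CV difference between conditions was 0.111 with the cell and 0.001 without it. For Rpl7 the CV difference was 0.108 and -0.007, and for Rpl39 it was 0.096 and -0.004. These apparent rises rest on that cell.

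Co-variation of members over the cells of a culture was weak. The median Pearson r between 2 members was 0.11 and 0.09 in shLuc #1 and #2 and 0.13 and 0.10 in shCTCF #1 and #2, and 0.08 in the last without S78. Over the 67 members with a mean log2(TPM + 1) above 5 it was 0.15, 0.12, 0.17 and 0.09, and over all 1779 genes above that level 0.01, 0.03, 0.01 and 0.12, where the last was 0.004 without S78. Over the 17 members above 1000 TPM it was 0.35, 0.28, 0.43 and 0.17, and over the 23 under 100 TPM 0.01, 0.01, 0.03 and 0.16, the last 0.12 without S78. Cells of a culture share library and total, and sparse counts lower r, so these values are descriptions over 23 or 24 cells with no p.

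**Figure D5:**
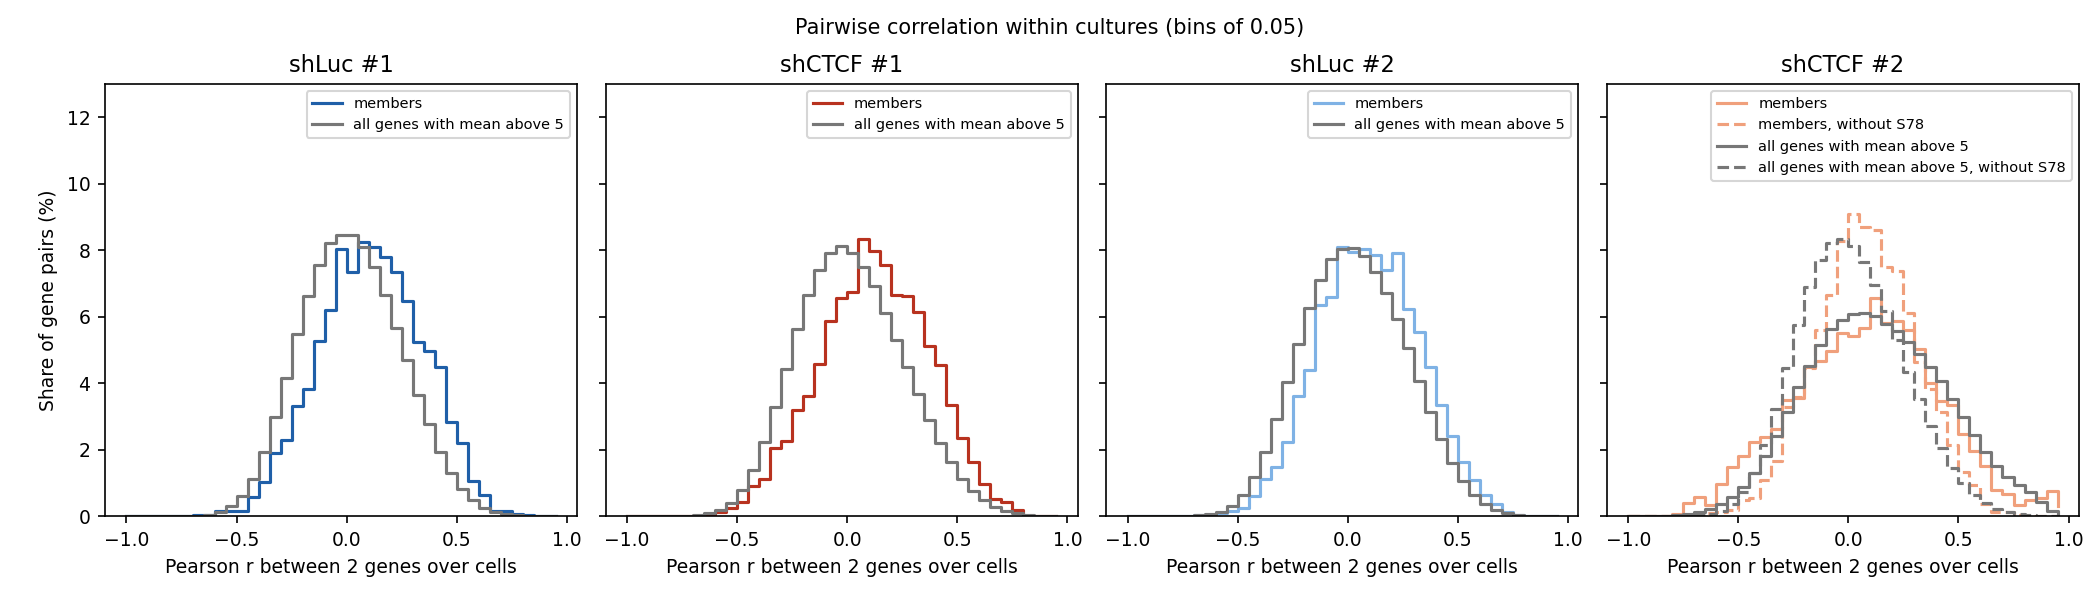
Distribution of Pearson r of log2(TPM + 1) over cells between pairs of members (coloured) and pairs of all genes with a mean above 5 (grey) in each culture, as the share of pairs in bins of 0.05. The members' curves lie to the right of the grey ones in shLuc #1, shCTCF #1 and shLuc #2, with medians of 0.11, 0.13 and 0.09, and in shCTCF #2 both curves narrow once S78 is left out (dashed).

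The correlation of each member with the mean of the other members was highest for Rpl8, at 0.59, 0.71, 0.62 and 0.79 in the 4 cultures and 0.68 in the last without S78. Rps7 followed with 0.62, 0.70, 0.30 and 0.82, or 0.64 without S78, and Rpl7a with 0.50, 0.45, 0.58 and 0.57, or 0.40. The third place of Rpl7a rests on S78, since without that cell Rpl41 and Rps15 had higher means over cultures, at 0.52 and 0.51 against 0.48. Rpl21 and Rpl32l were lowest with and without S78, with means over cultures of -0.10 and -0.01 with it. Rpl9, the next, had -0.31 in shCTCF #2 with S78 and 0.29 without it, so that its low place rests on that cell. The share of members per cell was also set against the summed TPM of 18 other mRNAs listed as TOP mRNAs. These were elongation and initiation factors and others such as Npm1, Tpt1 and Pabpc1, and their starts were not examined. The r was 0.72 in shLuc #1, 0.58 in shLuc #2 and 0.81 in shCTCF #1, and -0.14 in shCTCF #2, or 0.35 without S78. With 24 subunit assembly factors r was between -0.06 and 0.16, and with 77 mitochondrial ribosomal proteins 0.23, 0.06, -0.10 and -0.27, the last 0.17 without S78. With 20 other initiation factors it was -0.07, 0.39, 0.02 and -0.07 in the 4 cultures. With 10 genes of the G2 and M phases it was -0.37, -0.34, -0.23 and -0.14. The lists were not matched in level, and the part of level in these values was not tested.

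Genes around the ribosomal proteins were read from lists. None was called by limma at an adjusted p under 0.05. Of 3 ribosomal proteins outside the symbol pattern, Fau, which makes the last small subunit protein as a fusion, had means of 197, 236, 306 and 363 TPM and a log2 difference of 0.63. Rack1, the scaffold on the small subunit head, had 6947, 6688, 6839 and 5583 TPM and a difference of -0.14. Of 18 other TOP mRNAs, 11 were lower in both experiments (against 26.7% of all genes) and 3 higher in both (against 30.1%), with a median log2 difference of -0.18. The elongation factor Eef1a1 had 5553, 6155, 4001 and 4392 TPM and Pabpc1, the poly(A) binding protein, 1230, 1169, 783 and 730, and both CTCF-KD cultures lay under both WT cultures for each.

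Of 24 subunit assembly factors, both CTCF-KD cultures lay above both WT cultures for 21 (against 19.9% of all genes) and below for 0, with a median log2 difference of 1.32, and 12 had an unadjusted p under 0.05. Of 77 mitochondrial ribosomal proteins, 36 were above in both and 2 below, with a median of 0.49. Of 20 other initiation factors 6 were above and 1 below, with a median of 0.40. CTCF-KD cells had more genes detected, as given above, and its part in these values was not tested. Of 8 chaperones that guard single ribosomal proteins, 4 were above in both and 1 below. Grwd1, the chaperone of Rpl3, had 65.1, 73.6, 138 and 148 TPM and a difference of 1.04, Heatr3, which imports Rpl5, 6.07, 7.75, 18.4 and 30.2 TPM and 1.65, and Aamp 501, 480, 594 and 695 TPM and 0.39. Tsr2, the chaperone of Rps26, had 154, 166, 83.7 and 78 TPM and a difference of -0.98. Bccip had a difference of 0.50, Ltv1 of 1.15, Pdcd2 of 0.25 and Pdcd2l of 0.76. Of 14 regulators of TOP mRNAs and Myc, 2 were above and 2 below, and Myc, which drives ribosome production, had 241, 238, 344 and 315 TPM.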

How the data were processed

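EL4 cells were captured with the Fluidigm C1 system and the SMARTer protocol, and 96 were sequenced. Per the methods of the study, reads were aligned to GRCm38 with STAR, those with a unique position were counted on RefSeq genes by HTSeq, and the authors deposited TPM, a unit scaled by gene length and to a fixed total in each cell. Whether counting used strand is not given in the sources used here. The deposited table still held 1 cell under 3000 genes, which was left out here.

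Members and gene lists were chosen with earlier results of these data known. Whole reads were recovered from the TPM steps (100% of values above 0 were whole within 0.001, over 13334 genes), and served for depth and for thinning to 80000 reads (seed 11). The library protocol names no molecular identifiers, so reads may be PCR copies. No count model was fitted. In simulated reads 99.9% of values over 11757 genes came back exactly.

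The culture was the replicate. Limma 3.58.1 in R 4.3.3, with a trend and p-values adjusted by Benjamini-Hochberg (threshold 0.05), was fitted on log2(mean TPM + 1) of the 4 cultures for genes that exceeded 1 on that scale in 2 or more cells, and on the CV of each culture. Fold differences on this scale understate those of low genes. In simulated cultures with 200 of 11980 genes changed, limma called 0 of them at a log2 change of 2 and 189 at 6. A count of 0 thus says little about smaller changes. The simulated cultures were not paired, and no gene had a spread under the median of all genes. They were fitted without the replicate block, so the fit with the block was not covered. In WT cells split at random, the rule for CV found 126 of 200 genes with a raised SD among 7843. These genes were drawn from all levels, so the count does not show how often a changed member would be called. Genes called without a change are not given. The p-values measure the spread between cultures. Cultures are paired by their number, which in the methods of the study marks the initial and the second experiment, and across 11980 genes the deviations of paired cultures from their condition means had a correlation of 0.18, and across the members 0.78.

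Genes named are the P stalk, Rpl5, Rpl11, Rps19, Rpsa, paralogs with their partners, the 5 highest and 5 lowest members by mean TPM and by limma statistic, the 3 largest rises and falls of CV, the 3 highest and 3 lowest correlations with the other members, and every listed gene outside the symbol pattern or among the chaperones. Some genes that this choice covers are not reported here. Other genes named were chosen after their values were seen. Start windows are from RefSeq (GRCm38.p6), gene annotation from GENCODE M21 of the same build. Alternatives covered the scale, pseudocount, filter, centring, thinning, the replicate block, left-out cultures and, added after the data were seen, the removal of cell S78, the log of the CV and the contrast of experiments.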

Additional observations from a re-analysis of the deposited data

Results flagged for a closer look

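Among the genes named by rule, 7 differed in the direction of the knockdown difference between experiments. Each experiment has 1 culture per condition, so these differences were not tested. The log2 difference in experiment 1 and then experiment 2 was -0.25 and 0.52 for Rpl24, 0.23 and -0.31 for Rpl36a, 0.29 and -0.13 for Rpl7a, -0.24 and 0.07 for Rpl8, and -0.16 and 0.06 for Rplp0. Among the chaperones it was 0.76 and -0.26 for Pdcd2 and -0.43 and 1.96 for Pdcd2l. Of all 80 members 18 had opposite signs, while 47.5% were lower in both experiments and 30% higher in both. Over all genes tested, fewer were lower in both, at 26.7%, and 30.1% were higher in both, so opposite signs were not more common among members.

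Rows with a ribosomal protein-like symbol that the choice of members leaves out also held signal. Rpl36al, a paralog of Rpl36a, was detected in all 95 cells and had means of 473 and 466 TPM in shCTCF #1 and shCTCF #2, above 409 and 386 in shLuc #1 and shLuc #2. Rps19bp1, which binds Rps19 and is no ribosomal protein, had 119 and 92.8 TPM in the CTCF-KD cultures and 78.7 and 49.8 in the WT cultures. Rpl37rt had means of 204 and 71.3 TPM in shLuc #1 and shLuc #2 and 133 and 49.9 in shCTCF #1 and shCTCF #2, lower in the CTCF-KD culture of each experiment, and was detected in 92 of the 95 cells.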

How the results depend on the processing

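Limma called 0 members for expression under each alternative run. Among these were other pseudocounts, no filter, recovered reads scaled to a fixed total, centring, all 96 cells, the replicate block and each culture left out. Under the alternatives just named limma also called 0 of all genes tested, so the count is not particular to members. On the mean over cells of the log values it called 46 of 11980 genes, 44 of them higher, and no member. The block changed no call for expression. The difference in share lay between -2.32 and 0.387 percentage points with a culture left out. By the CV rule 4 members were called, and the count was 21 with the SD in place of the CV (18 increased and 3 decreased, against 13.4% and 13.2% of all genes) and 20 with a pseudocount of 10 (18 and 2, against 13% and 13.9%). It was 1 in experiment 1 alone (increased, against 7.35% of all genes increased and 11% decreased) and 2 in experiment 2 alone (increased, against 7.98% and 10.5%). At a limit of 2 SD it was 1 (increased, against 0.956% and 3.63%). With a culture left out it was 0 to 6, against 7.01% to 8.31% of all genes increased and 10.3% to 11.6% decreased. Limma on the CV called 7 members with the replicate block (5 lower and 2 higher, against 19.9% and 0.307% of all genes). After thinning it called 1 member lower, beside 376 of 7780 genes lower, and without S78 1 member lower, beside 636 of 7822 genes. The cause was not tested. The mean over cultures of the median r between members was 0.106, 0.0815 after thinning and 0.134 over members with a mean above 5. Of 360 values recomputed for named genes, 5 changed sign. Rplp1 had a log2 difference of 0.011 on the mean of logs, 0.015 after centring, 0.028 on scaled reads and 0.014 with all 96 cells, and Rpl36a 0.022 on scaled reads. With a culture left out, 21 of 160 changed sign, and the range was -0.70 to 0.050 for Rpl17, -0.52 to 0.80 for Rpl24, -2.99 to 0.040 for Rpl32l, -0.54 to 0.46 for Rpl36a, -0.080 to 0.25 for Rpl7a, -0.024 to 1.28 for Rpl7l1, -0.41 to 0.24 for Rpl8, -0.22 to 0.12 for Rplp0, -0.64 to 0.61 for Rplp1, -0.50 to 0.87 for Rplp2, -0.029 to 0.79 for Rps27, -0.59 to 0.13 for Rpsa, -0.29 to 0.0049 for Rack1, -0.11 to 0.61 for Pdcd2 and -0.13 to 1.66 for Pdcd2l. Depth was lowest in shCTCF #2, and limma could not be fitted on the CV of Rpl32l, listed at 0 there.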
